A study of Rattus norvegicus with 24 samples.

Results

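The genes described here are 44 genes of the peroxisome, measured in the kidney of 24 rats. They were chosen as a module by function, with earlier results of these data known, and were found by symbol in the deposited tables. All 44 were present among the 17334 genes in the files, and all 44 had enough reads to be tested, with 12778 genes tested in all. They comprise 13 peroxins, 4 transporters or channels of the peroxisomal membrane, and 27 metabolic enzymes. The module was read mainly as a contrast between the peroxins and the enzymes.

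Peroxisomes are small organelles that shorten very long and branched fatty acids, oxidise D-amino acids and 2-hydroxy acids, break down the hydrogen peroxide that these oxidases release, and carry out the opening steps of ether lipid synthesis. Their proteins are made in the cytosol, and peroxins build the membrane, import the finished enzymes and divide the organelle. In the kidney, peroxisomes are known to be most abundant in the proximal tubule, and many of their fatty acid enzymes are known targets of the nuclear receptor PPAR-alpha.

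All animals were male heterozygous PKD/Mhm (Cy/+) rats, which carry a missense change in Anks6 and develop kidney cysts. They were 8 months old when the left kidney was frozen, and RNA was taken from the whole kidney. The 6 untreated rats formed the control group (Ctrl). The CoCM group (6 rats) received medium taken from a co-culture of ABCB5+ stromal cells of human skin and activated human macrophages, and 6 rats each received ABCB5+ cells by the intraperitoneal (i.p. ABCB5+) or the intravenous route (i.v. ABCB5+), monthly for 6 months. No group of healthy rats was analysed here, so each comparison is between kidneys of the cystic line. Ctrl animals carry numbers from 1 to 24 and treated animals from 26 to 43, so the order of the animals and the treatment cannot be told apart in any comparison with Ctrl. Total estimated counts lay between 9304630 and 14125457 per kidney.

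A set of 4 libraries stood apart from the others before any member was considered. On the principal component that held 56.3% of the variance over the genes tested, CoCM animal 39, i.p. ABCB5+ animal 38 and i.v. ABCB5+ animals 36 and 37 lay between 80.83 and 97.42, and the other 20 animals lay between -53.01 and 11.53. In these 4 kidneys the 12 markers of injured tubule summed to between 1265 and 1559 TPM, against 9167 to 17602 TPM in the others. TPM are scaled to transcript length and library total. The 7 macrophage markers summed to between 141 and 441 TPM, against 1247 to 3097 TPM. Kidney peroxisomes are known to be plentiful in the S3 segment of the proximal tubule. Its 8 markers summed to between 1945 and 6098 TPM in the 4 kidneys and between 252 and 3112 TPM in the rest. These ranges overlapped. Of the 8 markers, 1 had its 4 highest values in these 4 animals and 1 had its 4 lowest there. No marker of these lists was at 0 in every animal. Class medians and fold changes of named members are given below with these animals and, where leaving them out moved the value, also without them.

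To show the regulatory DNA of the 5 enzymes that varied most and of a pair of peroxins beside them, the 250 bases before the start site are printed from RefSeq (rat assembly GRCr8, gene strand, 5′ to 3′). A window was found for 41 of the 44 members. Capitals mark AGGTCA on either strand (TGACCT on the printed strand), the motif that PPAR-alpha and its partner RXR are known to bind as a direct repeat, that is 2 copies of AGGTCA with 1 base between them. Acox2 lies on chr15:19090705-19090954 (plus strand), Amacr on chr2:61673085-61673334 (plus strand), Cat on chr3:110329527-110329776 (minus strand), Dao on chr12:48273301-48273550 (minus strand), Hao2 on chr2:188913134-188913383 (minus strand), Pex11a on chr1:143096492-143096741 (minus strand) and Pex14 on chr5:164819353-164819602 (minus strand).
Acox2: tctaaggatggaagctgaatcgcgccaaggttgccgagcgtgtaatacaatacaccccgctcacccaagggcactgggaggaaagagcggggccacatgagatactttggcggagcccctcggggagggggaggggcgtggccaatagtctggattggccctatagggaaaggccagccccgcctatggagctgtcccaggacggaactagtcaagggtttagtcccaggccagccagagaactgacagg
Amacr: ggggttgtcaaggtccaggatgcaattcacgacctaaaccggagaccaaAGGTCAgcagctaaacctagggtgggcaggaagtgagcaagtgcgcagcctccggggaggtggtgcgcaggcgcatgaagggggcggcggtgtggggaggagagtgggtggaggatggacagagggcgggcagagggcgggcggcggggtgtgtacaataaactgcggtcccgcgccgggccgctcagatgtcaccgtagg
Cat: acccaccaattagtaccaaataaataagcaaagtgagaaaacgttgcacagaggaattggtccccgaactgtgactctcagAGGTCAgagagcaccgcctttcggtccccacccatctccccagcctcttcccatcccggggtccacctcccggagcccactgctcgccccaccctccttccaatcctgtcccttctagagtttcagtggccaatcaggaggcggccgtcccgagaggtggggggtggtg
Dao: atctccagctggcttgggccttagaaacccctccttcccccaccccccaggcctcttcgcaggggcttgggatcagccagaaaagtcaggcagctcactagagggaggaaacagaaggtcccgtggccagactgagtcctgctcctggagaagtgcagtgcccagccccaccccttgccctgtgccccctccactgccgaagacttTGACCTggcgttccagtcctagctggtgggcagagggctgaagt
Hao2: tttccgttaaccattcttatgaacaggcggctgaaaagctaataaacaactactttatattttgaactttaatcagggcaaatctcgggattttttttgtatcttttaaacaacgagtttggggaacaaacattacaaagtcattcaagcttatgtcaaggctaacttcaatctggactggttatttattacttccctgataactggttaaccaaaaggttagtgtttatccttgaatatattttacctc
Pex11a: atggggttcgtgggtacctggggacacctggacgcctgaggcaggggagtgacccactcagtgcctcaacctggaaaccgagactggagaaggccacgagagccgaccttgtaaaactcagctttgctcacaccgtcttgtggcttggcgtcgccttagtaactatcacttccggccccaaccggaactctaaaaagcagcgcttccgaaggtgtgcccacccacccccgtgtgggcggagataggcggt
Pex14: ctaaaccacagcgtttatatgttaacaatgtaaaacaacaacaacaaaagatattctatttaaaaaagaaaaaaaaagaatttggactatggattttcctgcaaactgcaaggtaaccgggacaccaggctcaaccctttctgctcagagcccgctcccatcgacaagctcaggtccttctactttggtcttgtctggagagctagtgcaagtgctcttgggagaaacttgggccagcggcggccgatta

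The whole direct repeat was in 0 of the 41 windows, and in 15 of 27456 windows over all genes (0.0546%). The AGGTCA motif on either strand was in 7 windows (17.1%), against 13.7% of all windows, where a whole direct repeat also counts as AGGTCA. It was in 5 of 26 enzyme windows (Amacr, Cat, Dao, Ddo and Hsd17b4), in 1 of 11 peroxin windows (Pex11g) and in 1 of 4 membrane windows (Abcd2). It began 201 bases before the start in Amacr, 169 in Cat and 44 in Dao, and was absent from the windows of Acox2 and Hao2. The window of Hao2 was the poorest in G and C among the members, at 33.2%. The median was 60.4% over the enzymes, 54.8% over the peroxins and 52.0% over all genes.

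Level per transcript length was compared first, in TPM and within Ctrl, since only such values can be set against each other between genes. Peroxins were all of middling level, while enzymes ran from nearly undetected to very abundant. The median over the 13 peroxins was 20.7 TPM, with a range from 6.85 to 45.8 TPM. The median over the 27 enzymes was 65.5 TPM and the range was from 1.11 to 1537 TPM, against a median of 20.9 TPM over all genes tested.

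Hao2, which oxidises long-chain 2-hydroxy acids, had the highest level of the 44, at 1537 ± 1190 TPM (SD, n = 6). It was followed by Phyh, the first enzyme of alpha-oxidation of branched fatty acids, at 477 ± 98.4 TPM, and Dao, the D-amino acid oxidase, at 455 ± 314 TPM. Prdx5, a peroxiredoxin that also sits in mitochondria and cytosol, stood at 389 ± 25 TPM, and Idh1, which makes NADPH in cytosol and peroxisome, at 264 ± 61.7 TPM. The SDs of Hao2 and Dao overlapped with means below them, and that of Phyh with the means of Dao and Prdx5. The order among Hao2, Phyh, Dao and Prdx5 was therefore not resolved by 6 animals, nor was that of Dao and Idh1. At the other end were Pipox, the pipecolic acid and sarcosine oxidase (1.11 ± 0.406 TPM), Abcd2, an importer of very long-chain fatty acyl-CoA (1.18 ± 0.299 TPM), and Acox2, the acyl-CoA oxidase for branched chains and bile acid intermediates (1.57 ± 1.24 TPM). Their SDs overlapped too. Among the peroxins, Pex13 (45.8 ± 7.14 TPM) and Pex16 (40.2 ± 4.52 TPM) were highest, Pex14 followed at 30.1 ± 2.32 TPM, and Pex11g was lowest at 6.85 ± 1.58 TPM.

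**Figure D1:**
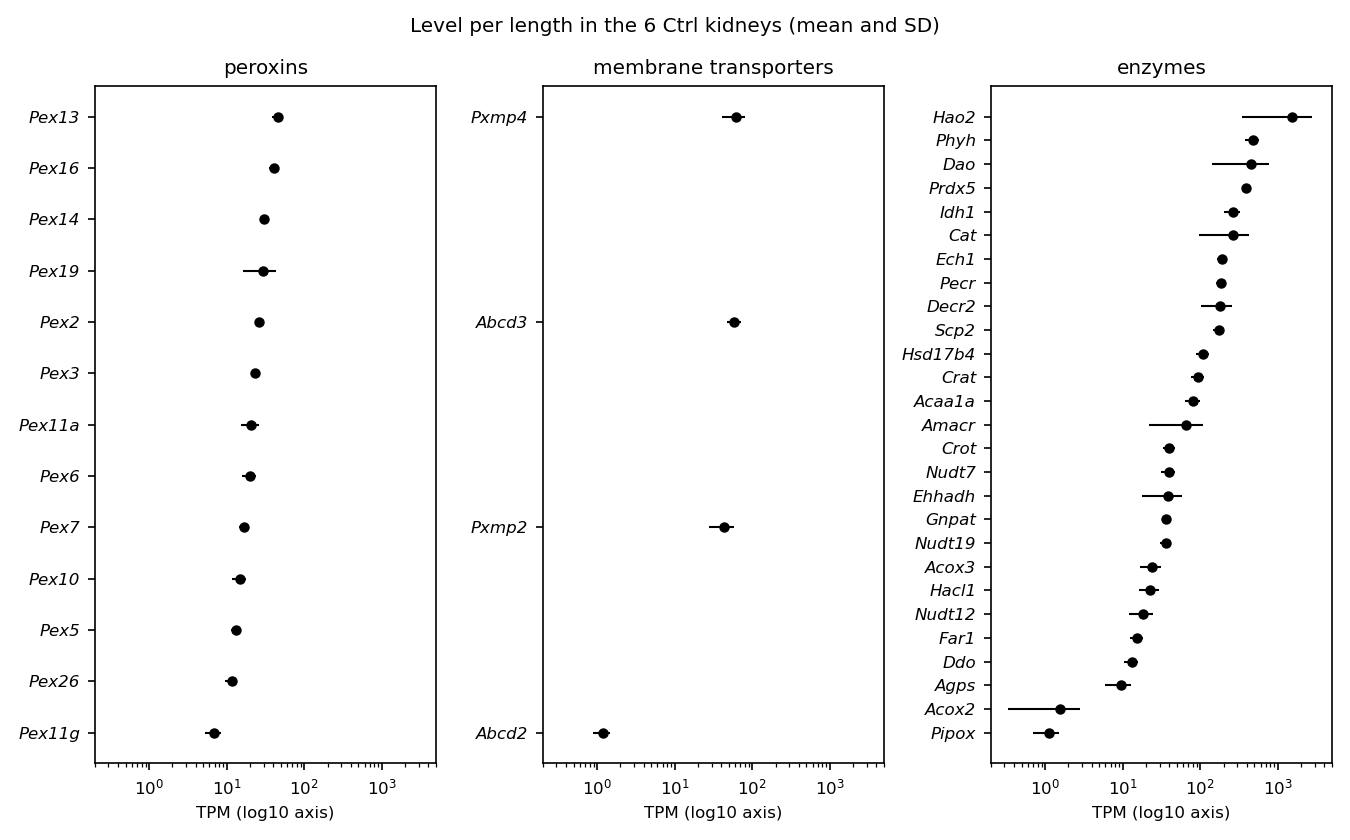
Mean level in TPM (log10 axis) of each member in the 6 Ctrl kidneys, with bars of 1 SD, in 3 panels for the peroxins, the membrane transporters and channels, and the enzymes. Peroxins keep within 6.85 to 45.8 TPM, and enzymes spread from 1.11 TPM (Pipox) to 1537 TPM (Hao2).

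The spread between animals also separated the classes. It was read from CPM, that is counts scaled to the TMM-adjusted library total. Over the 24 kidneys the SD of log2 CPM had a median of 0.25 for peroxins, 0.49 for the 4 membrane proteins and 0.41 for enzymes. For all genes tested the median was 0.30. Without animals 36 to 39 these medians were 0.18, 0.39 and 0.31, against 0.24. Within Ctrl alone they were 0.19, 0.39 and 0.31, against 0.23, so the order of the classes was already there among untreated animals. The highest value exceeded the lowest by more than 4-fold in 11 of 27 enzymes, 2 of 4 membrane proteins and 1 of 13 peroxins (3248 of 12778 genes). These are descriptions of the chosen genes, and no test was made over the list.

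**Figure D2:**
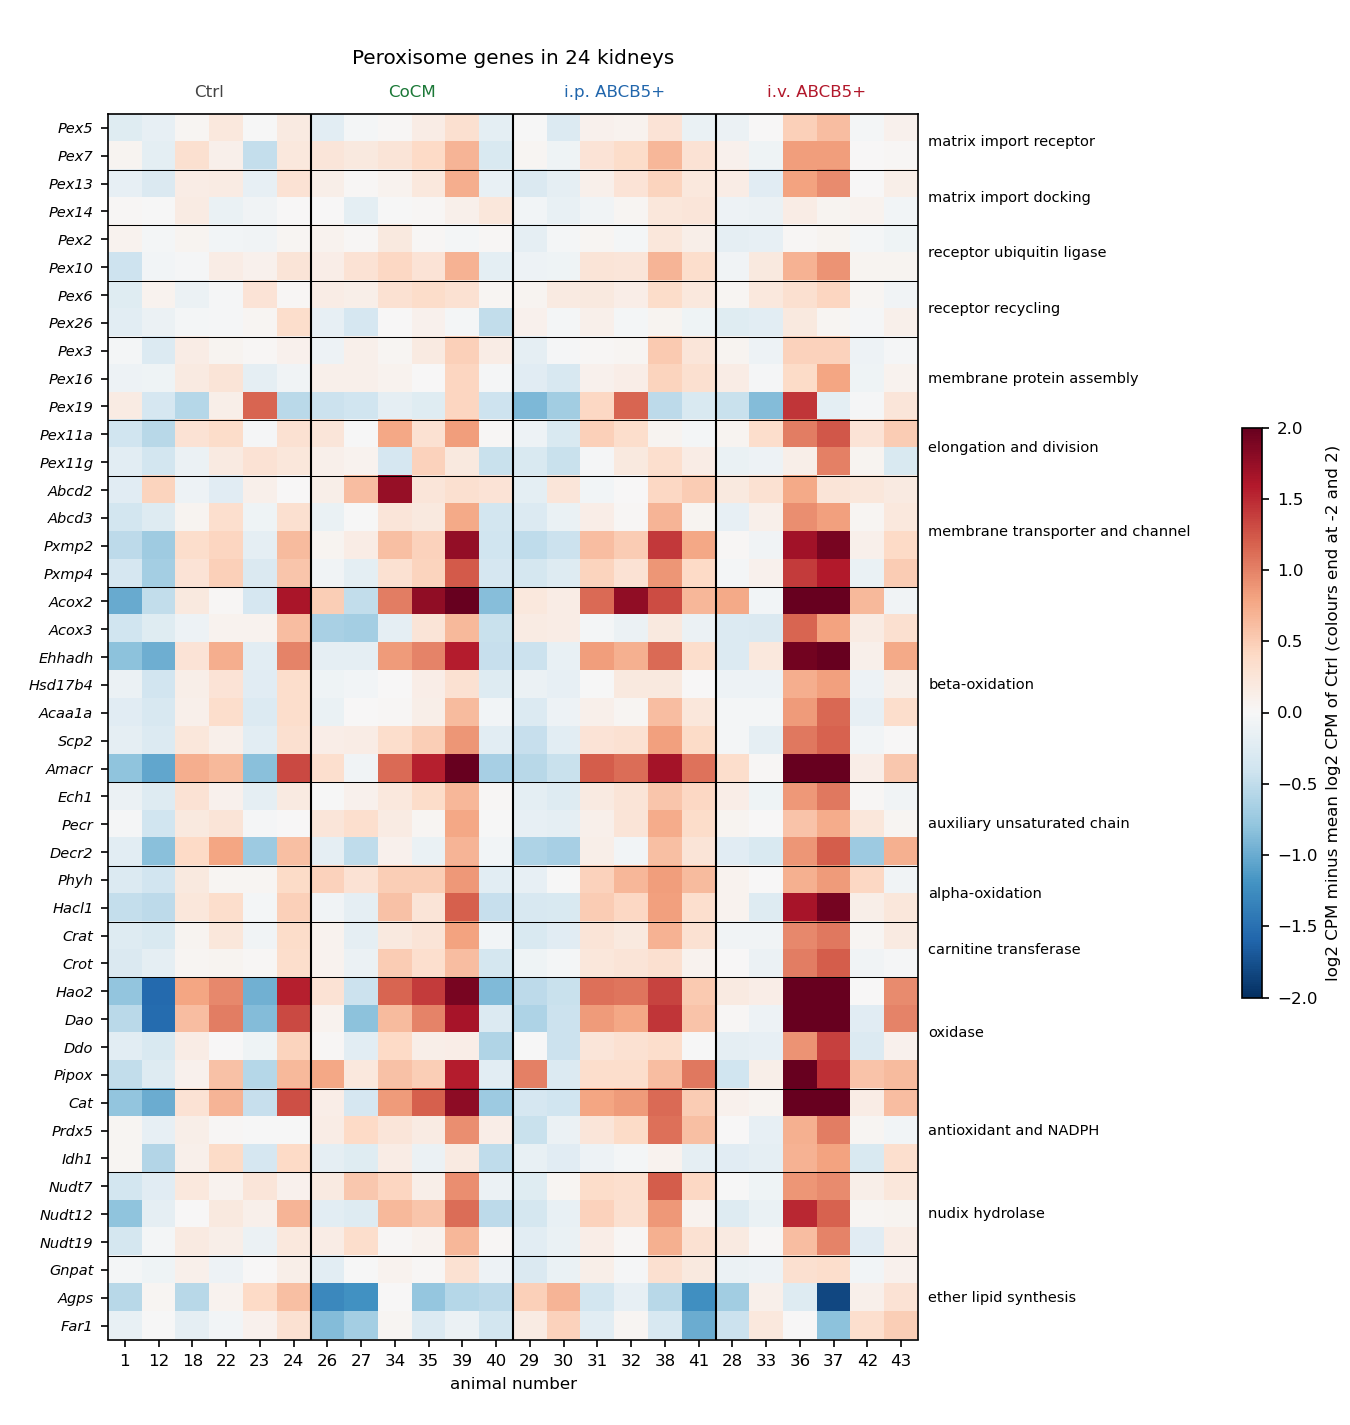
Log2 CPM of the 44 members (rows, by role) in each of the 24 animals (columns, by group), as the difference from the mean log2 CPM of Ctrl; red is higher and blue lower. Animals 36 to 39 are red in most rows of the enzymes and membrane proteins, Ctrl 12 and Ctrl 1 are blue in most of the same rows, and Pex2, Pex14, Pex26 and Gnpat stay pale throughout.

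The enzymes spread further between animals than the peroxins, and the classes did not put all animals in the same order. With log2 CPM centred on the 24 animals and averaged over each class, the enzymes ran from -0.68 in Ctrl 12 to 1.0 in i.v. ABCB5+ 37, and the peroxins from -0.27 in Ctrl 12 and i.p. ABCB5+ 30 to 0.47 in i.v. ABCB5+ 37. In Ctrl 24 the enzymes stood at 0.36 and the peroxins at 0.02, in Ctrl 1 at -0.59 and -0.21, and in Ctrl 23 at -0.42 and -0.02. The enzyme value minus the peroxin value was between -0.41 and 0.33 in Ctrl, -0.32 and 0.39 in CoCM, -0.15 and 0.27 in i.p. ABCB5+, and -0.12 and 0.53 in i.v. ABCB5+. The groups overlapped over most of their ranges. Outside animals 36 to 39 the highest difference of all was that of an untreated animal, Ctrl 24.

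**Figure D3:**
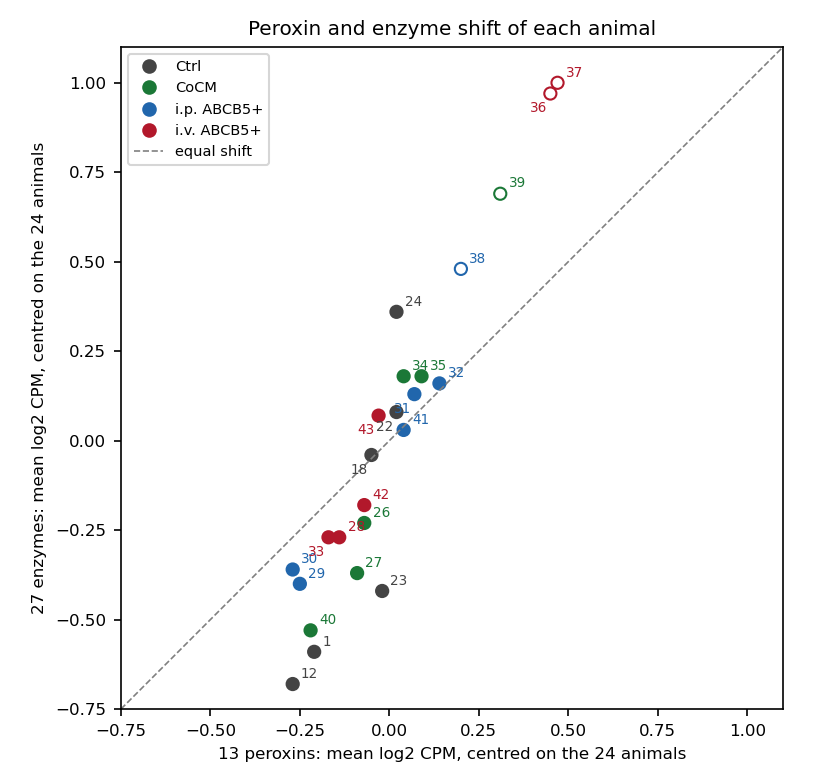
Mean centred log2 CPM of the 27 enzymes (vertical) against that of the 13 peroxins (horizontal), 1 point per animal with its number, coloured by group; open points are animals 36 to 39 and the dashed line marks an equal shift of both classes. Animals high in enzymes lie above the line (i.v. ABCB5+ 37 at 1.0 and 0.47) and animals low in enzymes below it (Ctrl 12 at -0.68 and -0.27).

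In 24 of the 44 members (54.5%) the 4 highest of the 24 values were those of animals 36 to 39, against 10% of all genes tested. The share was 15 of 27 for enzymes, 6 of 13 for peroxins and 3 of 4 for membrane proteins. The 4 lowest values belonged to these animals in 0 of 44 members and in 14.2% of all genes. Within Ctrl, animal 24 held the highest value in 21 of 27 enzymes (77.8%; 23.4% of all genes) and animal 12 the lowest in 17 of 27 (63.0%; 16.8% of all genes), whereas no Ctrl animal was highest in more than 3 of 13 peroxins. The summed proximal tubule S3 markers were also highest of Ctrl in animal 24 (2421 TPM), against 278 TPM in animal 12 and 252 TPM in animal 1. The summed markers of proximal tubule segments S1 and S2 were highest in animal 22 (4193 TPM, against 3738 TPM in animal 24). The part of these cells in the result was not tested. In RNA from whole kidney, fewer cells of a type and less RNA per cell cannot be told apart.

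Matrix import is the work of the receptors Pex5 and Pex7, which bind finished enzymes in the cytosol, of the docking proteins Pex13 and Pex14 at the membrane, and of the machinery that pulls the receptors back out. Pex5 ranged from 24.5 to 45.2 CPM over the 24 animals, Pex7 from 10.8 to 26.9 CPM and Pex13 from 42.7 to 101 CPM. Each of them was highest in i.v. ABCB5+ 37 and had its 4 highest values in animals 36 to 39. Pex14 did not follow and kept within 33.6 to 45.5 CPM, with its top value in i.p. ABCB5+ 41. The docking partners Pex13 and Pex14 thus differed in spread, with SDs of log2 CPM of 0.33 and 0.12.

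The ubiquitin ligase subunits that mark the import receptors for recycling showed the same split. Pex2 had the smallest spread of all members (SD 0.10), from 24.4 to 32.5 CPM. Pex10 ranged from 12.2 CPM in Ctrl 1 to 30.3 CPM in i.v. ABCB5+ 37 (SD 0.31). Of the proteins that extract the receptors, Pex26, the membrane anchor, ranged from 21.6 to 38.9 CPM with its highest value in Ctrl 24, and Pex6, the ATPase it holds, from 37.8 to 60.1 CPM (SD 0.17).

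Pex3, Pex16 and Pex19 insert proteins into the peroxisomal membrane. Pex3 ranged from 25 to 43.2 CPM and Pex16 from 24.2 to 52.3 CPM, each with the 4 highest values in animals 36 to 39. Pex19, the cytosolic carrier of membrane proteins, went its own way and had the largest spread of the peroxins (SD 0.62). It was at 15.9 CPM in i.p. ABCB5+ 29 and at 79.7 CPM in i.v. ABCB5+ 36, but also at 66.2 CPM in Ctrl 23 and 66.6 CPM in i.p. ABCB5+ 32. The estimated counts of Pex19 were not whole numbers in any of the 24 animals, so reads may be shared with other sequences and its level is uncertain.

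Peroxisome elongation and division involve the Pex11 proteins. Pex11a, a known PPAR-alpha target, had the second largest spread of the peroxins (SD 0.43). Its lowest, median and highest values were 21.4, 34.6 and 40.5 CPM in Ctrl, 31, 37.9 and 56.0 CPM in CoCM, 25.3, 31.4 and 43.7 CPM in i.p. ABCB5+, and 32.4, 42.1 and 73.8 CPM in i.v. ABCB5+. The i.v. ABCB5+ animals 36 and 37 were highest, i.p. ABCB5+ 38 stood at 32.5 CPM, and all groups overlapped. Pex11g ranged from 3.50 to 9.67 CPM.

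All 4 membrane proteins varied more between animals than the median gene, with SDs of log2 CPM from 0.36 to 0.72. Pxmp2, a channel for small solutes, ranged from 11.6 CPM in Ctrl 12 to 70.5 CPM in i.v. ABCB5+ 37, and Pxmp4 from 31.2 to 149 CPM in the same animals. Abcd3, which imports branched-chain and bile acid intermediates, ranged from 105 to 260 CPM. All 3 had their 4 highest values in animals 36 to 39. Abcd2 differed from them: its lowest, median and highest values were 3.98, 4.52 and 6.30 CPM in Ctrl and 5.05, 5.71 and 15.6 CPM in CoCM, with the value of 15.6 CPM in animal 34 alone, 4.07, 5.08 and 6.61 CPM in i.p. ABCB5+, and 5.27, 5.51 and 7.88 CPM in i.v. ABCB5+. Ctrl and CoCM overlapped through Ctrl 12 (6.30 CPM). Counts of Abcd2 and Abcd3 were not whole in any animal and may be shared with other sequences.

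Beta-oxidation held some of the widest ranges of the module. Amacr, the racemase that readies branched fatty acids for oxidation, had lowest, median and highest values of 26, 57.1 and 133 CPM in Ctrl, 33.9, 92.3 and 278 CPM in CoCM, 36.6, 115 and 169 CPM in i.p. ABCB5+, and 54.3, 73.3 and 394 CPM in i.v. ABCB5+. Acox2, the oxidase that acts on the products of Amacr, had 1.12, 2.03 and 6.94 CPM in Ctrl, 1.24, 3.88 and 10.8 CPM in CoCM, 2.48, 4.25 and 7.70 CPM in i.p. ABCB5+, and 2.14, 3.66 and 21.9 CPM in i.v. ABCB5+. Both were highest in animals 36 and 37, and within the untreated rats both were highest in animal 24. Amacr spanned 5.10-fold and Acox2 6.20-fold among Ctrl animals, and 15.1-fold and 19.6-fold over all 24.

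Ehhadh, the bifunctional enzyme of straight-chain oxidation and a known PPAR-alpha target, had values of 37.6, 76.3 and 147 CPM in Ctrl and 60.6, 105 and 298 CPM in i.v. ABCB5+ (lowest, median, highest), with CoCM between 53.2 and 218 CPM and i.p. ABCB5+ between 54.6 and 162 CPM. Its counts were not whole in any animal. The remaining beta-oxidation enzymes were flatter. Acox3 ranged from 26.1 to 93.5 CPM, Hsd17b4, the second bifunctional enzyme, from 147 to 341 CPM, and Scp2, the thiolase and sterol carrier, from 224 to 701 CPM. Acaa1a, the thiolase whose counts may be shared with its near-identical copy Acaa1b, ranged from 63.7 to 177 CPM.

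Enzymes that prepare unsaturated chains varied less, apart from Decr2. Ech1 ranged from 107 to 266 CPM and Pecr from 101 to 226 CPM, while Decr2, the peroxisomal dienoyl-CoA reductase, ranged from 87.7 to 365 CPM. In alpha-oxidation Phyh, whose counts were not whole in 23 of 24 animals and may be shared with other sequences, kept within 270 to 642 CPM, and Hacl1, the lyase after it, ranged from 20.6 CPM in Ctrl 12 to 112 CPM in i.v. ABCB5+ 37. The carnitine transferases that export the shortened chains ranged from 143 to 369 CPM (Crat) and from 58.4 to 171 CPM (Crot). Among the nudix hydrolases, which cleave CoA and related nucleotides, Nudt7 ranged from 18.9 to 56.4 CPM, Nudt12 from 27.8 to 137 CPM and Nudt19 from 23.1 to 58.7 CPM.

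The hydrogen peroxide-producing oxidases included the most abundant member and the rarest. Hao2 had lowest, median and highest values of 429, 1457 and 3718 CPM in Ctrl, 684, 2181 and 4730 CPM in CoCM, 879, 2242 and 3215 CPM in i.p. ABCB5+, and 1264, 1937 and 7561 CPM in i.v. ABCB5+. Dao had 130, 421 and 945 CPM in Ctrl, 214, 495 and 1183 CPM in CoCM, 247, 606 and 1027 CPM in i.p. ABCB5+, and 325, 572 and 2147 CPM in i.v. ABCB5+. For both genes Ctrl 12 was the lowest and i.v. ABCB5+ 37 the highest of all animals, and the groups overlapped. Hao2 differed 8.66-fold and Dao 7.26-fold among untreated rats. Ddo, the D-aspartate oxidase, ranged from 5.68 to 22.4 CPM, and Pipox from 0.799 to 4.94 CPM, against a floor of 3 counts that stands for 0.212 to 0.322 CPM in these libraries.

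Catalase (Cat), which destroys the peroxide, was lowest in Ctrl 12 and highest in Ctrl 24 among the untreated rats, as were Hao2 and Dao. Its lowest, median and highest values were 198, 386 and 964 CPM in Ctrl, 239, 572 and 1370 CPM in CoCM, 299, 623 and 863 CPM in i.p. ABCB5+, and 409, 522 and 2086 CPM in i.v. ABCB5+. Ctrl 24 (964 CPM) lay above 5 of 6 CoCM animals and above every i.p. ABCB5+ animal. Counts of Cat were not whole in any animal. Idh1 ranged from 196 to 517 CPM. Prdx5 behaved differently: its Ctrl values lay close together, between 159 and 194 CPM, while CoCM ran from 195 to 339 CPM, i.p. ABCB5+ from 131 to 385 CPM and i.v. ABCB5+ from 159 to 363 CPM.

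In ether lipid synthesis, Agps and Far1 ordered the animals differently from most other enzymes. Gnpat, which adds the opening acyl chain, was among the flattest members (SD 0.17; 40.8 to 63.1 CPM), close to Pex2, Pex14 and Pex6, although its 4 highest values were those of animals 36 to 39. Agps, which exchanges that chain for an alcohol, ranged from 3.53 CPM in i.v. ABCB5+ 37 to 20 CPM in i.p. ABCB5+ 30. Far1, which makes the fatty alcohol, ranged from 8.68 CPM in i.p. ABCB5+ 41 to 24.3 CPM in i.v. ABCB5+ 43. The 4 lowest values of both Agps and Far1 were in animals 26, 27, 37 and 41, an overlap looked for after their values were seen. In i.v. ABCB5+ 37, where Hao2, Dao, Amacr and Acox2 were highest, Agps was the lowest of all 24.

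**Figure D4:**
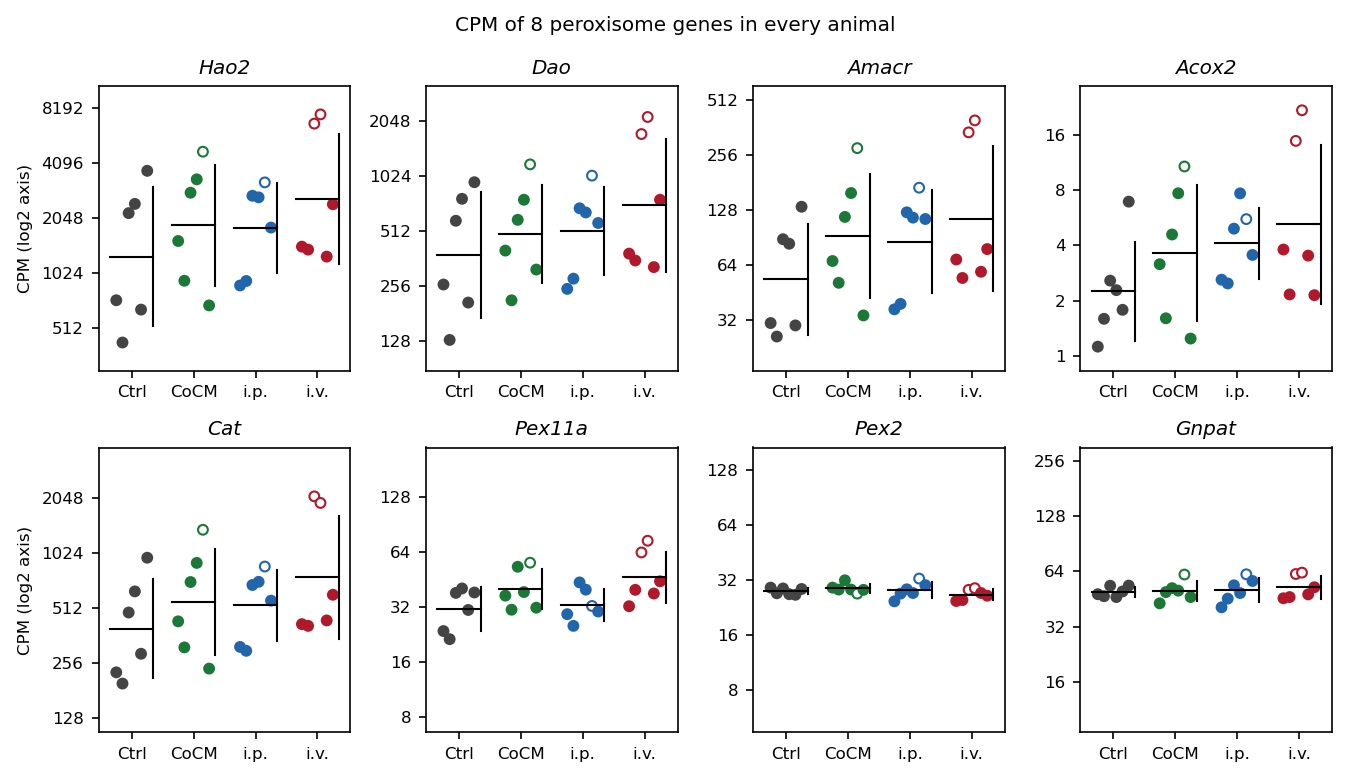
CPM of 6 enzymes and 2 peroxins in each animal by group, on a log2 axis that spans the same fold in every panel; lines are the group mean and SD of log2 CPM, and open circles are animals 36 to 39. Hao2, Dao, Amacr, Acox2 and Cat spread widely within every group, including Ctrl (Hao2 from 429 to 3718 CPM), while Pex2 (24.4 to 32.5 CPM) and Gnpat are nearly level.

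CoCM was compared with Ctrl to ask whether conditioned medium alone altered these genes. No member was called at an adjusted p under 0.05 by edgeR's quasi-likelihood test (0 of 44), against 1 gene of 12778 (0.00783%), and DESeq2 and limma also called 0 members. The median log2 fold change was 0.11 over peroxins and 0.26 over enzymes, against 0.01 over all genes tested, and 0.03 and 0.09 when animals 36 to 39 were left out. An unadjusted p under 0.05 was reached by 3 members of 44, against 11.9% of all genes.

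These were Abcd2 (log2 fold change 0.66 ± 0.23 SE, edgeR adjusted p = 0.327, higher than the Ctrl mean in 6 of 6 animals), Pex6 (0.21 ± 0.09, adjusted p = 0.391, 6 of 6) and Agps (-0.73 ± 0.33, adjusted p = 0.404, lower in 6 of 6). None of them passed the correction, and with animals 36 to 39 left out they were 0.70, 0.18 and -0.77. Without CoCM animal 34, whose Abcd2 stood far above the rest, the fold change of Abcd2 was 0.31. Amacr (0.85 ± 0.60, adjusted p = 0.536) and Acox2 (0.82 ± 0.62, adjusted p = 0.554) had the largest fitted differences, each with 4 of 6 animals above the Ctrl mean. Without animals 36 to 39 they were 0.37 and 0.41, and the members at an unadjusted p under 0.05 numbered 3 of 44, against 16.9% of all genes.

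Prdx5, which lies outside the rule for naming and was picked after its values were seen, was the only member whose Ctrl and CoCM values did not overlap (1 of 44, against 1.38% of all genes). Its edgeR fold change was 0.36 ± 0.23 (adjusted p = 0.491). The gap between the groups was narrow, from 194 CPM in Ctrl to 195 CPM in CoCM.

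The i.p. ABCB5+ animals were compared with the same Ctrl animals, so the 3 comparisons with Ctrl are not independent of each other. No member was called (0 of 44, against 0.00% of all genes) by edgeR, DESeq2 or limma. The medians were 0.06 over peroxins, 0.19 over enzymes and 0.00 over all genes, and without animals 36 to 39 they were 0.01 over peroxins and 0.07 over enzymes. With all animals 1 member had an unadjusted p under 0.05, against 1.77% of all genes. This was Phyh (0.43 ± 0.20, adjusted p = 0.978, 4 of 6 animals above the Ctrl mean). Pex6 (0.18 ± 0.09) and Nudt7 (0.41 ± 0.23) followed by p, and Acox2 (0.72 ± 0.62), Amacr (0.61 ± 0.60) and Pipox (0.50 ± 0.37) were largest in size, all with an edgeR adjusted p of 0.978. The highest Nudt7 value was that of animal 38 (56.4 CPM), and without animals 36 to 39 its fold change was 0.19. Phyh was then 0.33, Pex6 0.15, Acox2 0.65, Amacr 0.40 and Pipox 0.49. In that reduced fit 0 of 44 members had an unadjusted p under 0.05, against 1.39% of all genes. Groups overlapped for every member (0 of 44 did not, against 0.0470% of all genes).

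The largest differences of the enzymes came with i.v. ABCB5+, and they rested on animals 36 and 37. No member was called against Ctrl (0 of 44, against 0.00% of all genes) by edgeR, DESeq2 or limma. The median log2 fold change was 0.41 over enzymes, with 26 of 27 above 0, and 0.16 over peroxins, with 11 of 13 above 0, against 0.01 over all genes, of which 52.6% were above 0. An unadjusted p under 0.05 was reached by 6 members of 44, all upward, against 5.78% of all genes (738 of 12778, of which 567 were upward).

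Pex11a had the smallest p (0.59 ± 0.21, edgeR adjusted p = 0.673, higher in 6 of 6 animals). Acox2 (1.57 ± 0.62), Amacr (1.34 ± 0.61) and Cat (1.07 ± 0.51) were the largest in size, and Pipox (0.87 ± 0.37) and Hacl1 (0.83 ± 0.36) were the other members with an unadjusted p under 0.05. Their edgeR adjusted p was 0.673 in each case. Cat was above the Ctrl mean in only 3 of 6 animals, and Amacr and Acox2 in 4 of 6. In the fit without animals 36 to 39, Acox2 was 0.10, Amacr -0.01, Cat 0.00, Hacl1 -0.00, Pipox 0.19 and Pex11a 0.26, and the medians were -0.01 over enzymes and -0.03 over peroxins. In that fit 0 of 44 members had an unadjusted p under 0.05, against 1.23% of all genes. The groups overlapped for all 44 members with all 24 animals (0 did not, against 0.110% of all genes).

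Marker lists of kidney cell types were read beside these differences, and they did not all move alike. The median log2 fold change against Ctrl in CoCM, i.p. and i.v. ABCB5+ was 0.94, 0.68 and 1.23 over the 8 S3 markers. Over the 10 markers of proximal tubule S1 and S2 it was -0.3, -0.09 and 0.32. The S3 sum was 252 to 2421 TPM in Ctrl, 282 to 3788 in CoCM, 431 to 2410 in i.p. and 748 to 6098 in i.v. ABCB5+. The S1 and S2 sum was 1213 to 4193, 1438 to 4594, 1713 to 3912 and 1516 to 5510 TPM in the same order. The injured tubule sum was 10629 to 14853 TPM in Ctrl, 1265 to 16495 in CoCM, 1377 to 17602 in i.p. and 1343 to 14216 in i.v. ABCB5+. Each treated minimum of this sum was in animals 36 to 39.

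Leukocyte and stromal markers had their minima in the same animals. The macrophage sum was 1502 to 3097 TPM in Ctrl, 141 to 3053 in CoCM, 301 to 2622 in i.p. and 360 to 2674 in i.v. ABCB5+. In the same order, the 5 T cell markers summed to 124 to 231, 11.0 to 229, 18.2 to 252 and 24.1 to 224 TPM. The 6 fibroblast markers summed to 557 to 1580, 236 to 1392, 234 to 1232 and 284 to 1182 TPM. The thick ascending limb sum was between 5639 and 6492 TPM in animals 36 to 39 and between 1174 and 5244 TPM in the others. Within Ctrl this sum was lowest in animal 1 and highest in animal 24. Over all 24 animals the distal convoluted tubule sum ran from 328 to 1370 TPM and that of collecting duct principal cells from 538 to 1284 TPM. Intercalated cells ran from 373 to 1396 TPM, podocytes from 157 to 512 TPM and endothelium from 131 to 325 TPM. The part of these cells in the fold changes of the peroxisome genes was not tested.

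Routes of delivery were compared directly. No member was called between i.p. and i.v. ABCB5+ (0 of 44, against 0.00% of all genes) by edgeR, DESeq2 or limma. The median of i.p. minus i.v. was -0.10 over peroxins and -0.31 over enzymes, and 1 member, Pex11a, had an unadjusted p under 0.05, against 2.14% of all genes (-0.54 ± 0.21, edgeR adjusted p = 1.0, lower than the i.v. mean in 6 of 6 animals). Idh1 (-0.36 ± 0.19) and Hacl1 (-0.58 ± 0.35) followed by p. Acox2 (-0.84 ± 0.61), Cat (-0.78 ± 0.51) and Hao2 (-0.77 ± 0.59) differed most in size. When animals 36 to 39 were left out, the medians were 0.07 and 0.10, and Acox2, Cat and Hao2 were 0.55, 0.14 and 0.14, with the sign turned. Pex11a was then -0.19, Idh1 -0.06 and Hacl1 0.13. The members at an unadjusted p under 0.05 were then 0 of 44, against 1.13% of all genes, and with all animals the groups overlapped for every member (0 of 44 did not, against 0.0626%).

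**Figure D5:**
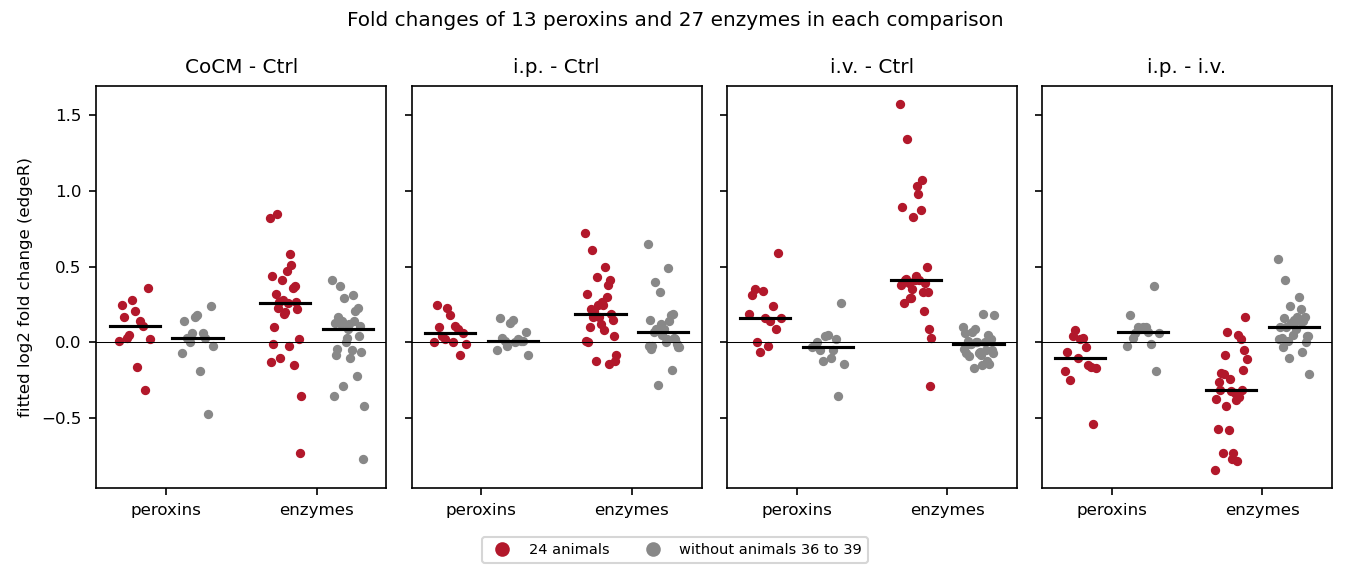
Fitted log2 fold change (edgeR) of each of 13 peroxins and 27 enzymes in the 4 comparisons, from all 24 animals (red) and without animals 36 to 39 (grey), with the median of each set as a black line. The enzyme median against Ctrl in i.v. ABCB5+ moved from 0.41 to -0.01, and in CoCM from 0.26 to 0.09.

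Over the 4 groups together the F-test of edgeR called 0 of 44 members and 0 of 12778 genes (0.00%). DESeq2's test over the groups and limma also called 0 members. In edgeR an unadjusted p under 0.05 was reached by Pex11a and Abcd2, that is by 2 of 44, against 4.71% of all genes, and both had an adjusted p of 0.817. With animals 36 to 39 left out, Abcd2 was the only member at an unadjusted p under 0.05 (1 of 44, against 6.23% of all genes).

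Other genes of the peroxisome were examined in the same fits. Of 45 further genes written down, 39 were tested and 0 were called in any comparison or in the F-test. In 15 of them the 4 highest values were those of animals 36 to 39. Mpv17, an inner mitochondrial membrane protein also assigned to peroxisomes, was at a log2 fold change of 0.20 ± 0.07 in CoCM against Ctrl (edgeR adjusted p = 0.353), and Xdh, the purine oxidase, at -0.65 ± 0.25 (adjusted p = 0.368).

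Of 9 regulators of the PPAR-alpha axis 0 were called. Ppara itself was scarce, between 1.19 CPM in Ctrl 1 and 8.78 CPM in i.v. ABCB5+ 43, and was not at its highest in any of animals 36 to 39. Its partner Rxra ranged from 8.96 to 37.3 CPM, and the related receptors Ppard and Pparg from 43.1 to 62.0 CPM and from 1.15 to 10.9 CPM. The coactivators Ppargc1a and Ppargc1b ranged from 8.81 to 59.7 CPM and from 1.68 to 10.7 CPM.

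The remaining regulators are receptors known to act on proximal tubule genes and on energy metabolism. Hnf4a, a factor that maintains proximal tubule identity, ranged from 139 CPM in Ctrl 12 to 1156 CPM in i.v. ABCB5+ 37, the animals in which Hao2 was also lowest and highest. Nr1h4, the bile acid receptor, ranged from 40 to 119 CPM, and Esrra from 70.8 to 144 CPM. Nr1h4, Esrra and Ppargc1b had their 4 highest values in animals 36 to 39. Against Ctrl, Nr1h4 was at 0.50 ± 0.20 (edgeR adjusted p = 0.673) and Hnf4a at 0.85 ± 0.42 (adjusted p = 0.673) in i.v. ABCB5+.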

How the data were processed

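Left kidney RNA of 24 rats was sequenced on a BGISEQ-500, and the rat groups and animal numbers were taken from the sample labels. The authors deposited estimated counts per gene for every animal, which were not normalized, and TPM values, which are scaled to transcript length and library total. The submitters' processing notes list Trim Galore 0.6.4, kallisto 0.4.6 and genome build rn6, while the methods of the study refer to human gene models and to DESeq2, and the annotation behind the tables is not given in the sources used here. The route of the conditioned medium differs between the series' design text and the study's methods.

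The 44 members and all gene lists were chosen with earlier results of these data known. Symbols came from the RefSeq table of GRCr8, in which 17179 of 17334 identifiers were found. Estimated counts were rounded, low genes were removed with filterByExpr, libraries were scaled by TMM, and a mean per group was fitted to all 24 animals in edgeR 4.0.16 (R 4.3.3). The quasi-likelihood F-test compared the groups, with Benjamini-Hochberg adjustment over 12778 genes and a threshold of 0.05. The SE of each log2 fold change was derived from its F. CPM were TMM-scaled, and log2 CPM used a prior count of 2. Between-gene levels and marker sums used TPM.

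Alternatives were DESeq2 1.42.0, limma 3.58.1 on log2(TPM + 1), median-ratio size factors, no filter, at least 10 counts in every animal, only the groups compared, each animal left out, and, chosen after the data were seen, the fit without animals 36 to 39. Scripts were tested on simulated data. The total of 9304630 to 14125457 counts sets the depth, and the floor of 3 counts covers counting error only, since reads carry no molecular identifiers.

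Named in each comparison were the 3 members with the smallest p and the 3 with the largest fold change. Named across animals were the 5 enzymes and 3 peroxins with the largest SD, the 3 members with the smallest, the 3 peroxins and 5 enzymes highest in Ctrl and the 3 members lowest there, with a range for every other member. Of the other peroxisome genes the 3 with the smallest F-test p were to be named, of which 1 is not reported here, and all 9 regulators. Promoter windows came from RefSeq (GRCr8) and are not coordinates of the files' build. Peroxisomal targeting signals in the proteins were not analysed here.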

Additional observations from a re-analysis of the deposited data

Results flagged for a closer look

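Within each group of 6, 60 pairs of a member and a group were screened for an outlying highest or lowest animal. An animal was flagged where its gap to its neighbour took an unusually large share of the group's range (Dixon's criterion at 95%). The pairs covered only a part of the named members, and Pex19 and Prdx5 were not among them. About 1 in 20 pairs pass by chance, that is 3 of 60, and 4 passed. Abcd2 in CoCM 34 was 15.6 CPM, against 5.05 to 7.16 CPM in the other CoCM animals. Abcd2 was also high in i.v. ABCB5+ 36, at 7.88 CPM against 5.27 to 5.75 CPM. Acox2 in Ctrl 24 was 6.94 CPM, against 1.12 to 2.57 CPM in the other untreated rats. Nudt7 in i.p. ABCB5+ 38 was 56.4 CPM, against 20.6 to 32.5 CPM.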

How the results depend on the processing

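No paired analysis was possible because no replicate number occurs in more than 1 group. The count of peroxisome genes called at an adjusted p under 0.05 was 0 in every comparison and in the F-test under each alternative run. Over all genes, DESeq2 called 78 in CoCM against Ctrl, 1 in i.v. ABCB5+ against Ctrl, 1 in i.p. against i.v. ABCB5+ and 10 in the F-test. The single gene that edgeR called in CoCM against Ctrl became 0 with limma, with only the groups compared and without animals 36 to 39, and its count ran from 0 to 31 when each animal was left out, with 31 without Ctrl 23 and 2 without i.v. ABCB5+ 37. In the F-test that range was 0 to 1, again with the highest count without Ctrl 23. The causes of these shifts were not tested. Without animals 36 to 39 the sign turned for Amacr in i.v. ABCB5+ against Ctrl (-0.01). In i.p. minus i.v. ABCB5+ it turned for Acox2 (0.55), Hacl1 (0.13), Hao2 (0.14) and Cat (0.14). The other 17 fold changes named by the rule for each comparison kept their sign. Hacl1 in i.v. ABCB5+ against Ctrl, named outside that rule, went from 0.83 to -0.00. The differences in level and spread between peroxins and enzymes kept their direction under the alternatives tried for them. Depth limits Pipox and Acox2 most, with 9 and 16 counts in their lowest libraries.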
